A study of Mus musculus with 4 samples.

Results

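The acetylcholine receptor and neuromuscular junction genes examined here were chosen by symbol from a list of 10 (Chrnb1, Lrp4, Chrna1, Chrnd, Chrne, Musk, Dok7, Rapsn, Ache and Colq). Of these, 3 were among the 13825 genes of the count table, namely Chrnb1, Lrp4 and Ache, and the other 7 were not analysed here. Around them, 12 lists of junction genes held 174 genes, of which 122 were analysed and tested.

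The RNA came from tibialis anterior (TA) muscle of adult male mice 14 days after surgery, and the 4 groups crossed genotype with surgery. WT muscle was either sham (WS) or denervated (WD), and so was Fgf21KO muscle (KS and KD). WT mice were C57BL/6J. Fgf21KO mice lacked Fgf21 in the whole body, so no cell type can be singled out as the source of a genotype difference, and their background was not given in the sources used here. In denervated muscle a piece of the sciatic nerve had been removed. The control was the opposite leg, which the labels describe as left innervated and the study's general methods as sham-operated without cutting the nerve. By those general methods sham and denervated muscles came from the same mice. The study's sequencing methods instead speak of sham-operated and denervated mice, 4 to a group, so the pairing is not settled. Each group was 1 library made from 4 pooled muscles, and no group had a replicate. Fgf21 itself was not analysed here, so the genotype label was not checked against it.

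Total counts over the analysed genes ran from 25249879 (WS) to 34141303 (KS), and expression is given as CPM (counts scaled to a common library size) after TMM scaling, with 3 counts corresponding to 0.0919 to 0.129 CPM. A ratio between 2 libraries carries a 95% interval that covers counting error only and has no p-value. The effects of denervation and of genotype over all 4 libraries were tested in 1 additive model (quasi-likelihood F test of edgeR, p-values adjusted by Benjamini-Hochberg over 13084 genes). That test has no true replicates. For denervation it sets the 2 genotypes side by side, and for genotype the 2 surgeries, whose muscles by the study's general methods came from the same mice. What it takes as error comes from the interaction of genotype and surgery. The size of that error is estimated mostly from all genes together, and a gene's own interaction enters only in part. It is not the spread between independent pools, and the p-values have to be read in that light. A gene is said to rise or fall where its adjusted p was below 0.05, and is called a DEG where the change was also at least 2-fold. Against the labelled tissue, 4 of 11 muscle fibre markers were analysed (Myh1, Mylpf, Tnni2 and Des), and their summed level was 31330 to 45690 CPM in the 4 libraries.

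At the neuromuscular junction, acetylcholine released by the motor axon opens a receptor channel in the crest of the muscle membrane, and acetylcholinesterase in the synaptic cleft ends the signal. The nerve also releases agrin, which binds LRP4 and thereby activates the kinase MuSK, and the receptors cluster through rapsyn. In innervated fibres the receptor genes are transcribed mainly by the few nuclei under the synapse. It is textbook knowledge that nuclei along the whole fibre take up this transcription when electrical activity stops, and that binding sites for myogenic basic helix-loop-helix factors, named E-boxes, lie near these genes.

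The promoters of Chrnb1 and Ache are shown because E-boxes are the element classically tied to activity-dependent receptor transcription and the transcripts of these genes moved in opposite directions. Of the 3 genes, these 2 were matched to the table of RefSeq promoters used here (GRCm38.p6), and Lrp4 is named only. Each sequence is the 250 bases before the annotated start, written 5′ to 3′ on the gene's own strand, with E-boxes (CANNTG, searched on both strands, its own reverse complement in form) in capitals. Chrnb1 lies on the minus strand (chr11:69795938-69796187) and Ache on the plus strand (chr5:137288004-137288253).
Chrnb1: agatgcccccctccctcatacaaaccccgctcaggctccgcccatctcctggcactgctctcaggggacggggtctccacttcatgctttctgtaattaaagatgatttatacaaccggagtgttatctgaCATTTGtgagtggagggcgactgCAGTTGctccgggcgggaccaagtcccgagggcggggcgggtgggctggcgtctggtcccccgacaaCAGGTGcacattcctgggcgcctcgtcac
Ache: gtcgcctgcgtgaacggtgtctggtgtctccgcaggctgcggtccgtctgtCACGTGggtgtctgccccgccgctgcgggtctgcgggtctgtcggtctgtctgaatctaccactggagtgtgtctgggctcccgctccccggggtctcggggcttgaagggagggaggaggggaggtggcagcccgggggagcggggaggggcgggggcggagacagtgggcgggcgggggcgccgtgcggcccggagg
The Chrnb1 promoter held 3 E-boxes, beginning 119, 96 and 29 bases before the start, and its GC content was 60.4%. The Ache promoter held 1, beginning 199 bases before the start, at a GC content of 73.6%. Of 32851 RefSeq promoters of the same length, 66.2% held at least 1 E-box and 12.2% held 3 or more. The N-box (CCGGAA, both strands), an element of subsynaptic transcription, was found in neither sequence and in 12% of all promoters. A match of letters is a description of the sequence only. Any CANNTG was counted whatever its middle letters (CACGTG in Ache), and binding by myogenic factors was not examined. Other starts of these genes were not examined.

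Chrnb1 encodes the β subunit, which is part of both the fetal and the adult form of the muscle receptor. It had 886 (WS), 6952 (WD), 1088 (KS) and 7125 (KD) counts, which correspond to 38.1, 212.9, 36.6 and 230.3 CPM. Both denervated libraries were far above both sham libraries. The transcript was 5.58-fold higher after denervation in WT muscle (log2 ratio 2.48, interval 2.38 to 2.58) and 6.28-fold higher in Fgf21KO muscle (2.65, 2.56 to 2.75). Over both genotypes Chrnb1 rose by 2.57 on the log2 scale, or 5.93-fold (edgeR adjusted p = 3.50e-21), and 125 of the 13084 genes tested (0.955%) had a higher change.

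Lrp4 encodes the receptor for agrin on the muscle membrane, which also signals back to the nerve terminal. Its counts were 455 (WS), 969 (WD), 589 (KS) and 1010 (KD), or 19.6, 29.7, 19.8 and 32.7 CPM. The denervated libraries again lay above the sham libraries, but by a much smaller margin than for Chrnb1. Denervated muscle was 1.51-fold higher in WT mice (log2 ratio 0.60, 0.44 to 0.76) and 1.64-fold higher in Fgf21KO mice (0.72, 0.57 to 0.87). Lrp4 rose by 0.66 on the log2 scale over both genotypes (1.58-fold, edgeR adjusted p = 2.16e-06), below the 2-fold criterion, and 14% of genes tested had a higher change.

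Ache encodes acetylcholinesterase, which is anchored in the synaptic basal lamina of muscle by the collagen tail ColQ. It had 1327 (WS), 533 (WD), 1909 (KS) and 433 (KD) counts, equal to 57.1, 16.3, 64.3 and 14.0 CPM. Here the order was turned around, with both denervated libraries below both sham libraries. The transcript was 3.49-fold lower in WD than in WS (log2 ratio -1.80, -1.95 to -1.66) and 4.57-fold lower in KD than in KS (-2.19, -2.35 to -2.05). Ache fell by 2.00 on the log2 scale over both genotypes (4.00-fold, edgeR adjusted p = 2.17e-16), and 83 genes (0.634%) had a lower change. In GENCODE M21 the gene overlaps Gm42456 on the opposite strand and Mir8116 on its own strand. The counting strand was not stated, so reads from these could not be told apart from those of Ache, whereas Chrnb1 and Lrp4 overlapped no other gene.

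**Figure D1:**
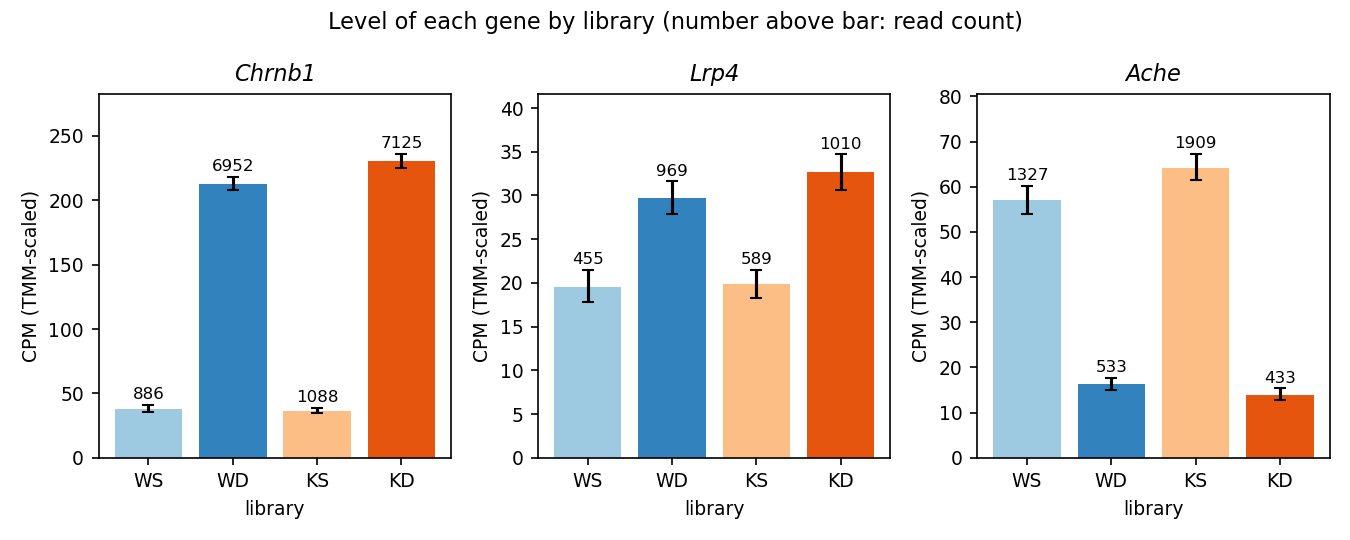
Level of Chrnb1, Lrp4 and Ache in each of the 4 pooled libraries (WS, WD, KS, KD) in CPM on a linear axis from 0, with raw counts above the bars and 95% counting intervals as error bars. Chrnb1 went from 38.1 and 36.6 CPM in the sham libraries to 212.9 and 230.3 CPM in the denervated libraries, Lrp4 from 19.6 and 19.8 to 29.7 and 32.7 CPM, and Ache from 57.1 and 64.3 to 16.3 and 14.0 CPM.

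In the additive model all 3 genes passed the adjusted threshold, as did 53.5% of all genes tested, and 2 were DEGs (1 higher, 1 lower), as were 13.1% of all genes. By size alone, 2 passed 2-fold in WD vs WS (1 higher, 1 lower), as did 14.8% of all genes (7.18% higher, 7.61% lower). The same held for KD vs KS, where 13.6% of all genes passed (7.51% higher, 6.1% lower). The directions of all 3 held under TMM, DESeq2's size factors and total counts alone. Under total counts alone the median log2 ratio of all genes itself became 0.29 (WD vs WS) and 0.36 (KD vs KS). Lrp4 then had log2 ratios of 0.88 (WT) and 1.07 (Fgf21KO), the latter past 2-fold, and Ache -1.52 and -1.84. With edgeR's exact test between single libraries, Chrnb1 and Ache were called at an assumed biological variation of 0.1 and not at 0.4.

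Levels of different genes were compared per kilobase of exon. Lengths were the union of all annotated exons in GENCODE M21 (2531 bases for Chrnb1, 4623 for Ache and 10504 for Lrp4). Which transcripts were expressed was not examined, so the order of genes at close values depends on these lengths. In WS, Chrnb1 stood at 15.1 CPM per kb, Ache at 12.3 and Lrp4 at 1.86. In WD the values were 84.1 for Chrnb1, 3.53 for Ache and 2.83 for Lrp4. By these lengths the order of the 3 genes was the same in WS and WD, while the gap between receptor subunit and esterase widened. In KS, Chrnb1 (14.5 CPM per kb) and Ache (13.9) had overlapping counting intervals, and so did Ache (3.03) and Lrp4 (3.11) in KD, so no order is given for those pairs.

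The genotypes were then compared within each surgery. For Chrnb1 the log2 ratio of Fgf21KO over WT was -0.06 in sham muscle (-0.19 to 0.07) and 0.11 in denervated muscle (0.07 to 0.16). For Lrp4 it was 0.02 (-0.16 to 0.20) and 0.14 (0.01 to 0.27). For Ache it was 0.17 (0.07 to 0.27) and -0.22 (-0.41 to -0.04). None of the 3 was 2-fold apart in either comparison, where 2.04% (sham) and 1.55% (denervated) of all genes were. In the additive model the genotype effect was 0.04 for Chrnb1, 0.08 for Lrp4 and 0.00 for Ache on the log2 scale, with edgeR adjusted p of 0.956, 0.916 and 0.997. The values for Chrnb1 and Ache average ratios of opposite sign in the 2 surgeries. An additive term cannot show a genotype difference that reverses with surgery. None of the 3 passed even at an unadjusted p below 0.05, as 7.93% of all genes did, and DESeq2's Wald test called none.

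The size of the denervation response was slightly greater in Fgf21KO muscle for each of the 3 genes as measured. The log2 response of Fgf21KO minus that of WT was 0.17 for Chrnb1 (0.03 to 0.31) and 0.12 for Lrp4 (-0.10 to 0.34). For Ache it was -0.39 (-0.60 to -0.18), a deeper decrease. The intervals for Chrnb1 and Ache excluded 0 and that for Lrp4 did not, but they leave out the spread between pools. The interaction of genotype and surgery takes the 1 residual degree of freedom, so it could not be tested. None of the 3 differences reached 2-fold, as 4.11% of all genes did. Nor did any of the 3 change direction between the genotypes, as 1.17% of all genes did with both counting intervals excluding 0.

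**Figure D2:**
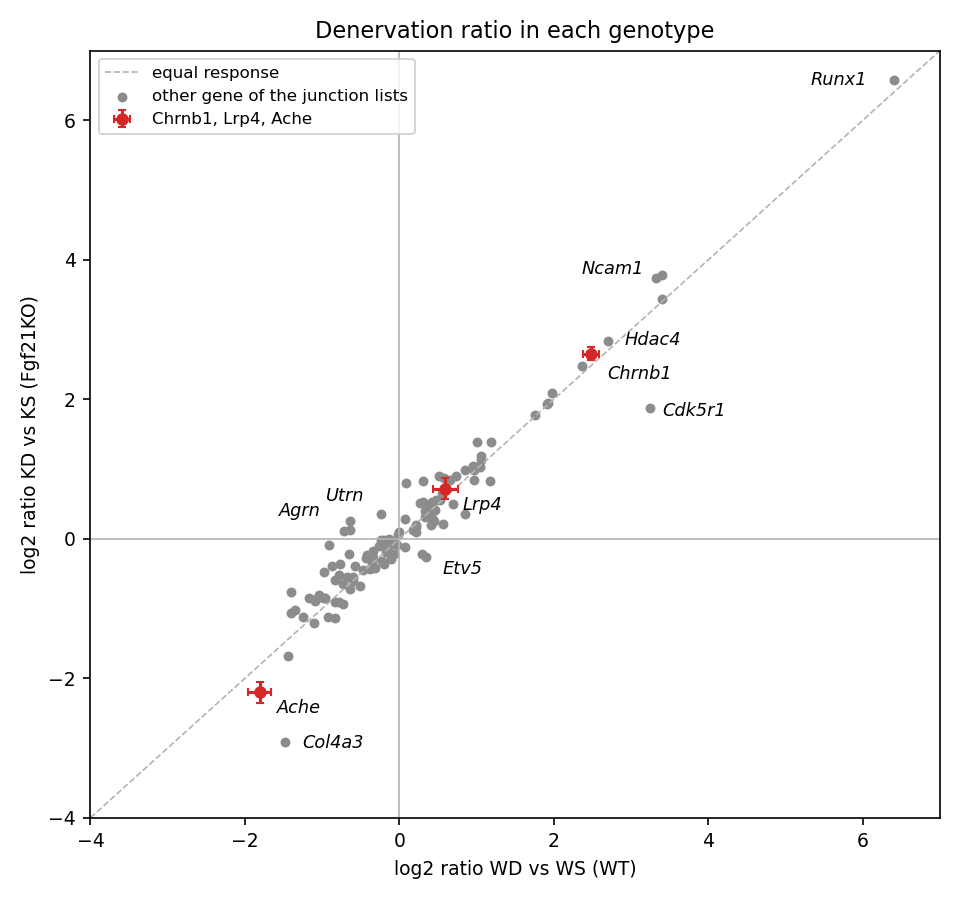
Denervation response as the log2 ratio WD vs WS (x axis) and KD vs KS (y axis) for the 122 junction genes, with Chrnb1, Lrp4 and Ache in red with 95% counting intervals and the line of equal response dashed. Chrnb1 lies at 2.48 and 2.65, Lrp4 at 0.60 and 0.72, and Ache at -1.80 and -2.19, so Chrnb1 and Lrp4 lie above the line and Ache below it, each with the ratio farther from 0 in Fgf21KO muscle.

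The genes whose profile over the 4 libraries was nearest to each member were found by the root mean square difference of centred log2 CPM. For Chrnb1 they were Maged1 (0.0286), Tlr2 (0.0432) and LOC115486938 (0.0480). Maged1 had 576, 4688, 694 and 4690 counts in WS, WD, KS and KD, whereas Tlr2 (17, 140, 19 and 143) and LOC115486938 (11, 92, 14 and 95) were sparse. For Lrp4 they were Slc12a4 (0.0102), Pcbd2 (0.0188) and Gm6807 (0.0202). For Ache they were Kcnn2 (0.0274), Lgalsl (0.0309) and Dusp7 (0.0453). Kcnn2 encodes a small-conductance calcium-activated potassium channel, and its log2 ratio was -1.82 in WT and -2.27 in Fgf21KO muscle. The closeness rests on 4 libraries that also set the TMM scale, and it is a description.

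With TMM scaling the 122 junction genes split about evenly in direction. In the additive model 47 rose, 45 fell and 30 did not pass, a share of 75.4% past the threshold beside 53.5% of all genes, of which 26.6% rose and 27% fell. The same shares of all genes are the background to the counts of each list given next. DEGs numbered 30 (24.6%, beside 13.1% of all genes), 20 of them higher and 10 lower, where 6.84% and 6.24% of all genes were. The lists were chosen with earlier results of these data known, which can itself raise their share above that of all genes. This holds for every list share given below, and it was not tested. By size alone, 32 junction genes passed 2-fold in WT muscle and 28 in Fgf21KO muscle, beside 14.8% and 13.6% of all genes. The median log2 change of the 122 genes was -0.06, beside 0.01 for all genes. With total counts alone that median became 0.26 beside 0.33 for all genes, and 27 junction genes were higher and 3 lower DEGs. Of these 30, 23 were also DEGs with TMM and 7 were not. Among all genes, DEGs then numbered 1704 higher and 324 lower, against 895 and 816 with TMM. The 7 junction genes that were DEGs with TMM and not with total counts alone had all fallen, namely Col4a4, Dach1, Hdac5, Itga6, Pdzrn3, Ric3 and Wnt4, and are given here for that reason. In bulk muscle, fewer cells of a type and less RNA per cell cannot be told apart.

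Within the agrin receptor complex, 3 of 6 genes were analysed and Lrp4 was the one that passed. Agrn, which encodes agrin, the ligand of LRP4, had 744 (WS), 672 (WD), 595 (KS) and 744 (KD) counts, and a denervation log2 change of -0.19 (adjusted p = 0.236; 0.13 with total counts alone). These are counts of the whole gene in muscle RNA, so neither the cell of origin nor the form of agrin was told apart. Mesd, the chaperone that folds LRP receptors, had a change of -0.13 (adjusted p = 0.296; 0.19 with total counts alone). The muscle subunit list held Chrnb1 alone, and none of the 11 neuronal subunits was analysed here.

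Of 25 effectors below MuSK, 9 rose, 9 fell and 7 did not pass, with a median change of -0.07 that became 0.25 with total counts alone. Src encodes a tyrosine kinase that stabilises receptor clusters, and it rose by 1.95 on the log2 scale (61 (WS), 330 (WD), 82 (KS) and 331 (KD) counts). Pak1, a kinase that acts on actin below Rac and Cdc42, rose by 1.94 (562, 3001, 584 and 2357 counts). Wnt4, a Wnt ligand of MuSK, fell by 1.18 (606, 334, 745 and 381 counts), and Pdzrn3, a ubiquitin ligase that binds MuSK, fell by 1.02 (3989, 2954, 4679 and 2247 counts). These 4 were named as the highest and lowest changes of the list, and with TMM all 4 were DEGs, as were 13.1% of all genes. With total counts alone Wnt4 (-0.86) and Pdzrn3 (-0.70) were below 2-fold, and the list had 7 higher and 0 lower DEGs, against 4 and 2 with TMM.

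In the acetylcholinesterase and basal lamina list, to which Ache belongs, more genes fell than rose. Of its 21 genes 14 fell, 3 rose and 4 did not pass, where 27% of all genes fell and 26.6% rose, and the median change was -0.72 (-0.40 with total counts alone). Col4a3, a collagen IV chain enriched in synaptic basal lamina, fell by 2.18 on the log2 scale (78 (WS), 38 (WD), 100 (KS) and 12 (KD) counts). Col4a5, its partner chain, rose by 2.48 (30, 226, 40 and 243 counts), and Itgb1, the β subunit of laminin-binding integrins, rose by 0.55 (5435, 11037, 7206 and 11094 counts). The chains of this collagen network therefore moved apart, and Col4a4, named after its values were seen, fell by 1.25 (-0.92 with total counts alone). The endothelial markers moved with this list: 6 of 6 fell, and their summed level was 579.3 (WS), 249 (WD), 471.2 (KS) and 249.7 (KD) CPM. Fibro-adipogenic progenitor markers fell in 6 of 8 and summed to 698.6, 455.3, 678.9 and 470 CPM. The part of these cells in the result was not tested.

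Among 10 genes of the neuregulin, ErbB and ETS group, 3 rose, 1 fell and 6 did not pass (median change 0.18). Erbin, a scaffold of the receptor ErbB2, rose by 2.04 on the log2 scale (1576 (WS), 8758 (WD), 1984 (KS) and 8845 (KD) counts). Cdk5r1, the p35 activator of Cdk5, rose by 2.58 but from only 3 counts in WS and 15 in KS to 59 and 63. Its log2 ratio in WD vs WS had a counting interval of 2.19 to 6.13. Erbb4, a neuregulin receptor, had 6 to 17 counts and a change of -0.24 (adjusted p = 0.727; 0.08 with total counts alone). Gabpb2, a partner subunit of the N-box factor GABP, fell by 0.32 with TMM and had a change of 0.000846 with total counts alone.

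Of 12 receptor assembly and turnover genes, 9 rose, 2 fell and 1 did not pass the threshold (median change 0.36). Myo5a, a myosin that carries receptor vesicles, rose by 1.21 on the log2 scale (167 (WS), 475 (WD), 195 (KS) and 535 (KD) counts). Rab5a, a GTPase of early endosomes, rose by 1.0025 (1302, 3558, 1716 and 3686 counts). Ric3, a chaperone of nicotinic receptors, fell by 1.21 (97, 56, 140 and 66 counts; -0.89 with total counts alone). Rer1, which retains unassembled subunits in the secretory pathway, fell by 0.28 with TMM and had a change of 0.04 with total counts alone.

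In the dystrophin complex 3 of 12 genes rose, 5 fell and 4 did not pass, no gene was a DEG, and the median change was -0.25 (0.07 with total counts alone). Sntb1, a syntrophin, rose by 0.73 on the log2 scale, and Dtnb, a dystrobrevin, had a change of 0.59 (adjusted p = 0.0677). Sgcd, a sarcoglycan, fell by 0.87, and Plec, which links the complex to intermediate filaments, fell by 0.62. Of 8 other congenital myasthenic syndrome genes, 3 rose, 3 fell and 2 did not pass. The glycosylation enzyme Gmppb rose by 0.59 and Prepl by 0.44. Tor1aip1, of the inner nuclear membrane, fell by 0.68, and the mannosyltransferase Alg2 fell by 0.36.

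Genes of the synaptic myonucleus and membrane excitability held some of the highest changes, with 4 of 9 rising and 4 falling. Ncam1, the adhesion molecule known to spread over the surface of denervated fibres, had 234 (WS), 3319 (WD), 235 (KS) and 3298 (KD) counts. It rose by 3.55 on the log2 scale, and both denervated libraries stood more than 10-fold above the sham libraries in CPM. Lmna, the A-type lamin, rose by 1.76 (1688, 8010, 1982 and 7051 counts). Sun2 and Syne2, which tie the nucleus to the cytoskeleton, fell by 1.56 and 0.97.

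Activity-dependent regulators of receptor genes rose in 11 of 19 cases, fell in 6 and did not pass in 2, with a median change of 0.38. Runx1, a transcription factor known for its induction in denervated muscle, went from 44 counts in WS and 53 in KS to 5422 in WD and 5459 in KD, a rise of 6.55 on the log2 scale. Id2, an inhibitor of basic helix-loop-helix factors, rose by 3.62 (78, 1182, 75 and 1098 counts). Hdac5, a class IIa deacetylase, fell by 1.16, and Dach1, a corepressor related to Dach2, fell by 1.09 (-0.84 and -0.77 with total counts alone). Hdac4, the class IIa deacetylase named in the study's title and picked here after its values were seen, rose by 2.78 (1030 (WS), 9437 (WD), 1233 (KS) and 9222 (KD) counts). Its genotype effect was -0.02 (adjusted p = 0.982).

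**Figure D3:**
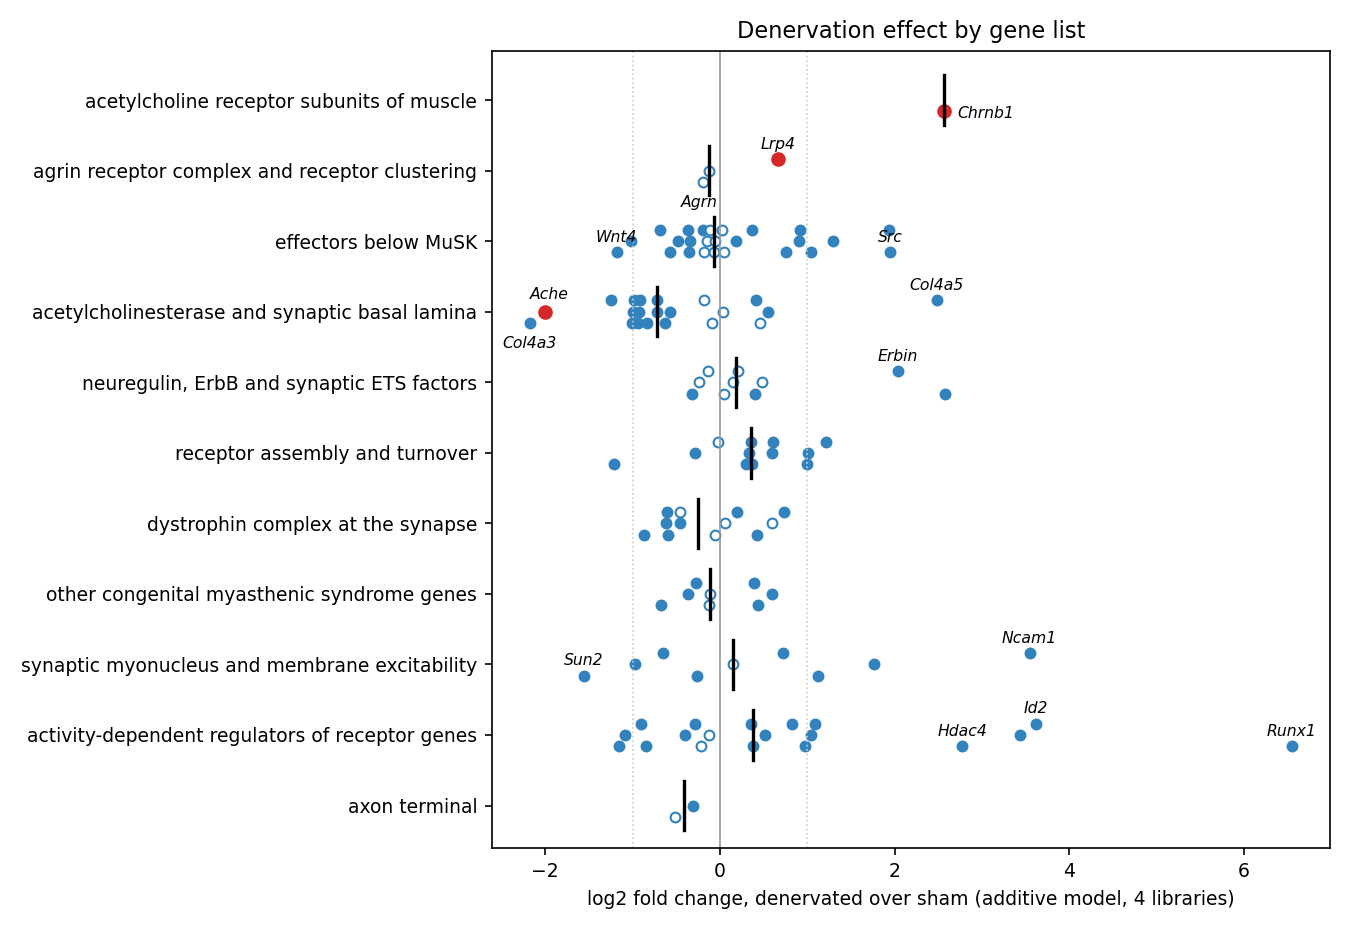
Denervation log2 fold change over both genotypes (x axis) for the junction genes, 1 row per list, with filled points past an adjusted p of 0.05, open points not past it, Chrnb1, Lrp4 and Ache in red, black bars at list medians and dotted lines at 2-fold. With TMM scaling the medians ran from -0.72 in the acetylcholinesterase and basal lamina list to 0.38 in the activity-dependent regulators among lists of more than 3 genes. With total counts alone those of the agrin complex, MuSK effector, dystrophin and myasthenic syndrome lists turn from negative to positive. They stay below the median of all genes, which is then 0.33.

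The axon terminal list had 2 of 16 genes analysed. Vamp1, a vesicle SNARE, fell by 0.31 with TMM and had a change of 0.01 with total counts alone. Its cell of origin in this muscle RNA was not identified, so the value is not a reading of the nerve terminal. Schwann cell markers, which the sample could also hold, fell in 4 of 6 analysed genes of 12, from 75.9 CPM in WS and 73.6 in KS to 31.3 in WD and 30.1 in KD. Macrophage markers rose in 7 of 9 and summed to 31.5, 69.9, 33 and 69.2 CPM in WS, WD, KS and KD. For the satellite cell list 2 of 5 genes were analysed, Sdc4 and Vcam1, of which 1 rose and 1 did not pass. Their summed level was 21.4, 58.8, 23 and 53.4 CPM. Of the 4 muscle fibre markers, 3 fell and Des rose, and they summed to 45690 (WS), 31330 (WD), 44420 (KS) and 33010 (KD) CPM. No marker analysed was at 0 in any library, since each gene of the table had at least 1 count in each. These shifts ran alongside the changes of Chrnb1, Lrp4 and Ache, and their part in them was not tested.

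Between genotypes, 1 junction gene passed the adjusted threshold. No junction gene was a DEG for genotype, where 0.176% of all genes were, by edgeR or by DESeq2's Wald test. At an unadjusted p below 0.05 there were 23 of 122 (18.9%), beside 7.93% of all genes. The gene past the adjusted threshold, as 0.673% of all genes were, was Hspg2, and it is named for that reason. Hspg2 encodes perlecan, a basal lamina proteoglycan that binds the collagen-tailed acetylcholinesterase. It had 317.5 (WS), 161.9 (WD), 207.8 (KS) and 149.5 (KD) CPM, a genotype effect of -0.37 on the log2 scale (edgeR adjusted p = 0.0301) that did not pass under DESeq2's size factors (adjusted p = 0.0503) or total counts alone (0.253). The error of this test is again drawn from the interaction pooled over genes, so Hspg2's own interaction enters it only in part. For Hspg2 that interaction is the gap between its ratios in the 2 surgeries. Its log2 ratio was -0.61 (-0.66 to -0.56) in sham muscle and -0.12 (-0.17 to -0.06) in denervated muscle.

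Of the 21 genes of the acetylcholinesterase and basal lamina list, 11 were below WT in both Fgf21KO libraries, beside 27.4% of all genes. An unadjusted p below 0.05 in edgeR's genotype test was found for 11, beside 7.93% of all genes. The endothelial markers were also lower in KS (471.2 CPM) than in WS (579.3 CPM) and nearly level in KD and WD, and their part in this was not tested. By size, Cdk5r1 was the 1 of 122 junction genes past 2-fold in KS vs WS, beside 2.04% of all genes (log2 ratio 1.54, 0.15 to 4.40, at 15 and 3 counts). Col4a3 (-1.43, -2.66 to -0.62) and Erbb4 (1.29, 0.17 to 3.21) were the 2 in KD vs WD, beside 1.55% of all genes, both at low counts.

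**Figure D4:**
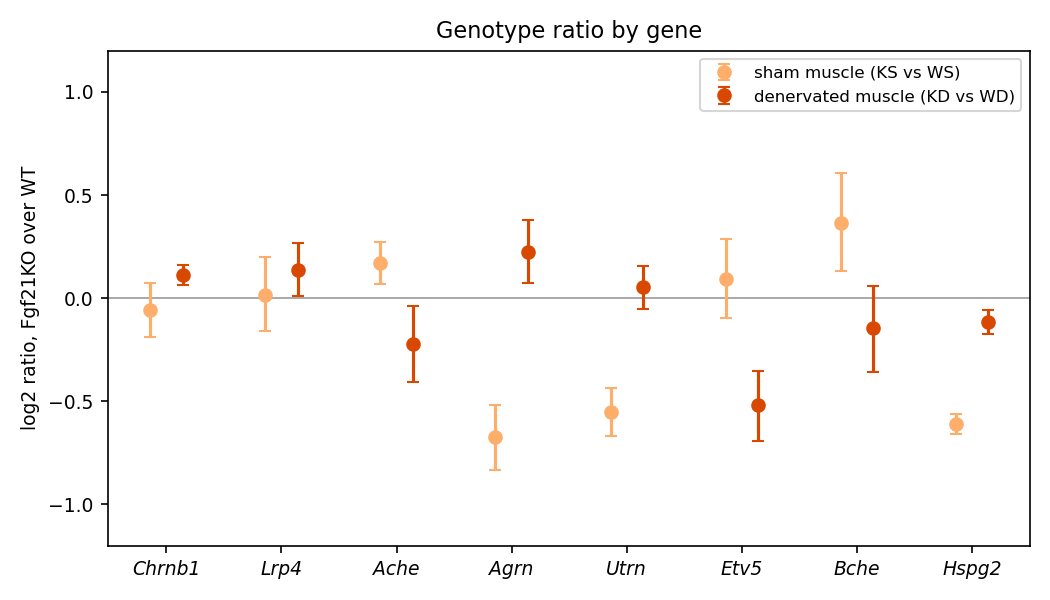
Log2 ratio of Fgf21KO over WT in sham (KS vs WS) and denervated (KD vs WD) muscle for 8 junction genes, with 95% counting intervals and a line at 0. Agrn, Utrn, Etv5, Bche and Hspg2 are shown because of their values and do not stand for the junction genes at large. Chrnb1 and Lrp4 stay within 0.14 of 0 in both comparisons, Ache changes sign from 0.17 to -0.22, and Hspg2 lies at -0.61 in sham and -0.12 in denervated muscle.

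Several junction genes overlap other genes in GENCODE M21, and without a stated counting strand their values are uncertain to that extent. Of the 122, 80 overlapped any other gene and 25 a protein-coding gene. Among those named above, Gmppb overlaps Rnf123, Prepl overlaps Slc3a1, Rab5a overlaps Pp2d1, Ric3 overlaps Tub, Tor1aip1 overlaps Tor1aip2, Vamp1 overlaps Tapbpl and Cd27, and Plec overlaps Parp10. Ncam1 and Runx1 each overlap an antisense transcript. The calls of Alg2, Gabpb2, Gmppb and Vamp1 did not pass in DESeq2's Wald test (adjusted p = 0.0993, 0.111, 0.165 and 0.0614), and Alg2 did not pass with total counts alone either (-0.04, adjusted p = 0.762).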

How the data were processed

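The authors deposited raw read counts per gene and another table, named for FPKM, whose deposited values are on a log2 scale. Those log2 values were found to be log2(f × count + 1), where f is constant within a library, so gene length does not enter them. The submitters' processing notes name FastQC and GRCm39, and the aligner, counter, annotation and counting strand were not given in the sources used here. No column was left unmapped.

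Of 13825 genes, the 13084 with a mean count of at least 10 were fitted with edgeR 4.0.16 in R 4.3.3 (additive model of genotype and surgery, 1 residual degree of freedom, common biological coefficient of variation 0.0681). TMM factors ran from 0.870 to 1.12. Ratios between libraries used log2 CPM at a prior count of 2, with exact intervals from the counts (Python 3.11.15, scipy 1.17.1), and were called at 2-fold. Intervals for the difference of responses used a normal approximation from the counts. Alternatives were DESeq2 1.42.0 (size factors and Wald test), total counts alone, other filters and prior counts, the deposited log2 values, edgeR's exact test at an assumed variation of 0.1 or 0.4, no fold threshold, and each factor alone. Data were also simulated with 200 of 13084 genes changed, the same variation (0.068, as fitted here) in every gene, and no genotype effect or interaction. The test of denervation recovered 91.7% at 2-fold, called by adjusted p alone (a median of 10 false calls). At 4-fold, where a call also needed a 2-fold change, it recovered 98.9% (a median of 1). These rates hold for those settings only and leave out the spread between pools.

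The genes named are the rule's 10, those analysed of each list with the 2 highest and the 2 lowest denervation changes, and the 3 nearest profiles of each member. A gene that this rule names is left out of the text. Any other named gene was chosen after its values were seen. The members and lists were chosen with earlier results of these data known. Gene lengths and overlaps come from GENCODE M21 (GRCm38), a different build from that of the files.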

Additional observations from a re-analysis of the deposited data

Results flagged for a closer look

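In 5 of the 122 junction genes the denervated library lay on opposite sides of its sham library in the WT and Fgf21KO mice, with both counting intervals excluding 0. That is 4.1% of them, beside 1.17% of all genes tested. The difference between the responses was not tested, since the interaction takes the only residual degree of freedom, and these genes were picked out by their values.

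Agrn, which encodes the nerve and muscle ligand of LRP4, went from 32.0 CPM in WS to 20.6 in WD, a log2 ratio of -0.64 (-0.79 to -0.49). In Fgf21KO muscle it went from 20.03 CPM in KS to 24.1 in KD, a log2 ratio of 0.26 (0.11 to 0.42). The difference, Fgf21KO minus WT, was 0.90, and the highest of the 4 libraries was WS. Utrn, which encodes utrophin, the dystrophin relative at the synapse, had the same order of signs, with log2 ratios of -0.24 and 0.36 and a difference of 0.60.

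The other 3 went the other way. Etv5, an ETS factor of subsynaptic transcription, had ratios of 0.35 and -0.26 (difference -0.61). Bche, which encodes butyrylcholinesterase, had ratios of 0.30 and -0.22 (difference -0.51). Prkaca, the catalytic subunit of protein kinase A, had ratios of 0.07 and -0.11 (difference -0.19).

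With total counts alone, Agrn still had opposite signs (-0.35 and 0.62), whereas the other 4 were above 0 in both genotypes. The values were then 0.04 and 0.72 for Utrn, 0.63 and 0.09 for Etv5, 0.58 and 0.14 for Bche, and 0.36 and 0.24 for Prkaca. The medians of all genes were themselves 0.29 (WD vs WS) and 0.36 (KD vs KS) under that scaling. Against those medians each of these genes still lay on opposite sides in the 2 genotypes.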

How the results depend on the processing

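No pairing of single mice was possible because the labels carry no replicate numbers and every condition has 1 pooled library. The additive model already pairs the sham and denervated pools of a genotype through its genotype term. The unpaired fit, surgery alone, gave denervation effects of 2.57 for Chrnb1 (edgeR adjusted p = 2.91e-10), 0.66 for Lrp4 (1.34e-04) and -2.001 for Ache (1.81e-08), and 31 DEGs among the 122 genes against 30. With 1 library a group no replicate was left out, and the spread between mice is unknown. DESeq2 was not run between single libraries. Sparse genes such as Cdk5r1 and Erbb4 are limited by depth.

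Of the alternatives for Chrnb1, Lrp4, Ache and the counts over the lists, 194 kept their direction and side of the threshold, stayed within the counting interval or, for a count, within 1.5 times. Another 21 moved, 4 lost their call and 3 changed sign. For the other named genes 302 held, 11 calls were lost, 3 were gained, 10 ratios moved and 7 changed sign. Where a value changed, the cause was not tested, apart from the rescaling and the smaller number of genes that an alternative itself brings.

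With total counts alone, the log2 ratios in WD vs WS and KD vs KS were 2.76 and 3.01 for Chrnb1, 0.88 and 1.07 for Lrp4, and -1.52 and -1.84 for Ache. The genotype effects near 0 changed sign, to -3.274e-05 for Chrnb1 and -0.0488 for Ache, and DESeq2's Wald test gave -0.0112 for Ache. The denervation effect turned to 0.13 for Agrn, 0.0822 for Erbb4, 0.000846 for Gabpb2, 0.19 for Mesd, 0.30 for Prkaca, 0.0403 for Rer1 and 0.0105 for Vamp1. With total counts alone the median denervation effect of all genes was itself 0.33.

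edgeR's exact test at an assumed variation of 0.4 left Chrnb1 at 2.48 (adjusted p = 0.401) and 2.65 (0.266) and Ache at -1.81 (1) and -2.20 (0.64), none past the threshold. Over the lists it called 3 genes (WD vs WS), 4 (KD vs KS) and 0 in either genotype comparison, and at 0.1 it also called 0 in the latter. With a mean count of at least 50 the counts were 0 in KS vs WS, 1 in KD vs WD and 1 for the difference of responses. With the deposited log2 values these 3 were 0, 0 and 0, and a smaller prior count gave 4 in KD vs WD. By the adjusted p alone, 92 genes passed for denervation and 1 for genotype.

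With total counts alone the DEGs of the 122 genes split into 27 higher and 3 lower, against 20 and 10 with TMM. By size they were 25 and 6 in WD vs WS (19 and 13 with TMM) and 31 and 3 in KD vs KS (19 and 9). Hspg2's genotype effect did not pass without a filter (adjusted p = 0.105), with a mean count of at least 50 (0.0554), with DESeq2's Wald test (1) or with genotype alone (1).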
